A study of Mus musculus with 8 samples.

Results

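The CC chemokines of 4T1-FLuc tumors were described from RNA-seq counts of 4 saline and 4 mAb-DXd/IMQ tumors. The 10 genes, Ccl2, Ccl3, Ccl4, Ccl5, Ccl6, Ccl7, Ccl8, Ccl9, Ccl12 and Ccl22, were chosen by symbol from 54532 genes in the count table. 4T1-FLuc is a mouse triple-negative breast cancer line that carries firefly luciferase. It was injected under the skin of female BALB/cJ mice aged 6 weeks, which are immunocompetent and syngeneic to the line. Mice received mAb-DXd/IMQ at 16 mg/kg into the tail vein every 4 days for 5 courses, or saline, and each of the 8 tumors was taken at the study endpoint. The agent is a humanized antibody to CD276 that carries DXd, a topoisomerase inhibitor, and IMQ, an imidazoquinoline agonist of the receptors encoded by Tlr7 and Tlr8. With these groups, the parts played by the antibody and by each payload cannot be told apart. The labels name the control as saline in the titles and as PBS in the treatment field. The samples were whole tumors of a subcutaneous graft, so tumor cells and host cells were measured together, and fewer cells of a type cannot be told apart from less RNA per cell.

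CC chemokines are small secreted proteins with a pair of adjacent cysteines that direct leukocytes through G protein-coupled receptors. Ccl2, Ccl7, Ccl12 and Ccl8 attract monocytes and other leukocytes, Ccl3, Ccl4 and Ccl5 attract T cells, NK cells and myeloid cells, and Ccl22 attracts Ccr4-bearing T cells. In tumors, macrophages, T cells, stromal cells and tumor cells can all be sources, and transcription of several members responds to NF-kB and interferon signaling.

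All 10 genes passed the filter on low counts, with 66 to 9407 counts per tumor, and none changed past the thresholds. Total counts were 34591912 to 69582375 per tumor, and values below are CPM, a gene's counts relative to that total, with TMM factors for library composition. By edgeR's quasi-likelihood F-test, 0 of 10 passed a false discovery rate of 0.05 with an absolute log2 fold change above 0.58, where 1.06% of 18511 tested genes did, 0.546% higher and 0.519% lower. At an unadjusted p under 0.05 there were 4 of 10, Ccl2, Ccl5 and Ccl7 on the higher side and Ccl8 on the lower side, beside 18.9% of tested genes. DESeq2 placed 2 of 10 past the thresholds, Ccl2 and Ccl8, among 787 such genes in all, and limma-voom 0 of 10 among 174, beside 197 by edgeR. The median log2 fold change was -0.08 over the 10 genes, 5 above and 5 below 0, and 0.02 over all tested genes. No member had groups without overlap, where every tumor of a group lies above every tumor of the other, whereas 13.1% of tested genes did, 5.97% higher and 7.10% lower. That count was 2 without saline tumor 1 (Ccl5 and Ccl8), 3 without saline tumor 2 (Ccl2, Ccl6 and Ccl7), 3 without mAb-DXd/IMQ tumor 2 (Ccl2, Ccl7 and Ccl8) and 1 without mAb-DXd/IMQ tumor 3 (Ccl5). Groups of 3 and 4 tumors are apart more often by chance, and in those comparisons 18.7, 17.1, 16.5 and 18.8% of all tested genes did not overlap, in the same order.

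The number of changed genes among all tested genes depended on which tumor was left out. It was 197, 101 higher and 96 lower, and with upper-quartile factors 218, of which 145 were higher and 73 lower. It was 10 without saline tumor 3, 11 without saline tumor 4, 12 without mAb-DXd/IMQ tumor 4, 76 without mAb-DXd/IMQ tumor 2, 88 without mAb-DXd/IMQ tumor 3 and 111 without saline tumor 2. It hardly moved without saline tumor 1 (203) or mAb-DXd/IMQ tumor 1 (190). Fits that left out a tumor also had fewer tumors to compare. No member passed in any of these fits.

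**Figure D1:**
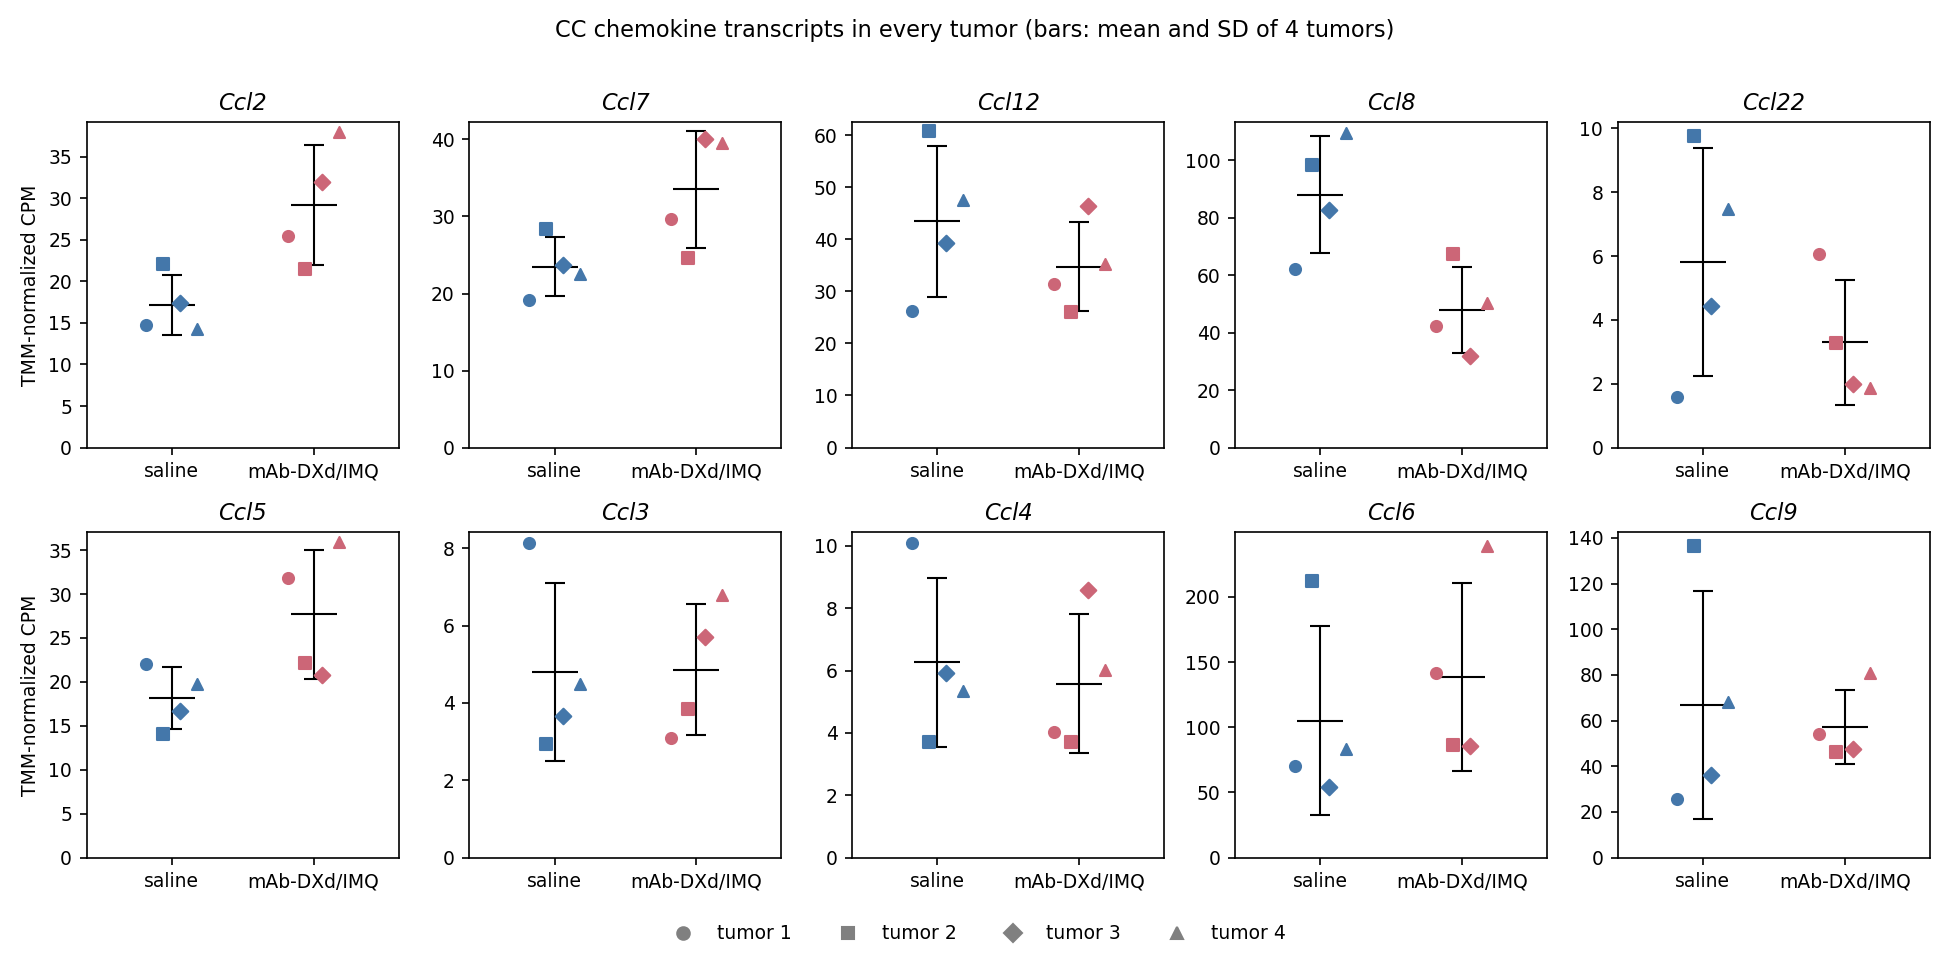
TMM-normalized CPM (y axis, from 0) of each CC chemokine in 4 saline and 4 mAb-DXd/IMQ tumors, with 1 point per tumor, its shape giving the tumor number, and bars for the mean and SD. For Ccl2, Ccl5 and Ccl7, 3 of 4 mAb-DXd/IMQ tumors lay above all saline tumors, and for Ccl8, 3 of 4 lay below them.

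The first set of ligands lies in a cluster on chromosome 11. On GRCm38, the build that the table's coordinates matched, Ccl2 spans chr11:82035571-82037453, Ccl7 chr11:82045712-82047525, Ccl12 chr11:82101845-82103400 and Ccl8 chr11:82115185-82116799, all on the + strand. Ccl11, an eosinophil attractant, lies between Ccl7 and Ccl12.

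Ccl2, the main ligand of Ccr2 for monocyte recruitment, measured 14.7, 22.1, 17.4 and 14.2 CPM in saline tumors 1 to 4 and 25.5, 21.5, 32.0 and 37.9 CPM in mAb-DXd/IMQ tumors 1 to 4. All mAb-DXd/IMQ tumors but tumor 2 lay above every saline tumor, and mAb-DXd/IMQ tumor 2 lay just below saline tumor 2. The means were 17.1 ± 3.60 and 29.2 ± 7.24 CPM (SD, n = 4 each), a 1.71-fold difference of means. The log2 fold change was 0.77 with a standard error of 0.20, short of the threshold by edgeR's quasi-likelihood F-test with Benjamini-Hochberg adjustment (adjusted p = 0.0748). DESeq2 gave Ccl2 an adjusted p of 0.0103, and over 11 alternatives its adjusted p ranged from 0.0103 to 0.271.

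Ccl7, which shares Ccr2 as a receptor with Ccl2, measured 19.1, 28.4, 23.7 and 22.5 CPM in saline tumors and 29.7, 24.6, 40.1 and 39.6 CPM in mAb-DXd/IMQ tumors. The arrangement was that of Ccl2: saline tumor 2 was highest in its group, mAb-DXd/IMQ tumor 2 lowest in its own, and these 2 tumors made the groups overlap. The log2 fold change of Ccl7 was 0.51 with a standard error of 0.18 (edgeR, adjusted p = 0.153).

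Ccl8, a monocyte and T cell attractant whose mouse protein acts through Ccr8, measured 62.2, 98.1, 82.5 and 109 CPM in saline tumors and 42.1, 67.2, 32.0 and 50.3 CPM in mAb-DXd/IMQ tumors. Here 3 mAb-DXd/IMQ tumors lay below every saline tumor, and mAb-DXd/IMQ tumor 2 exceeded only saline tumor 1. The means were 88.0 ± 20.4 and 47.9 ± 14.9 CPM (SD, n = 4 each), with a log2 fold change of -0.88 and a standard error of 0.23 (edgeR, adjusted p = 0.0758). DESeq2 gave Ccl8 an adjusted p of 0.00696, and over 11 alternatives it ranged from 0.00696 to 0.112.

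Ccl12, another Ccr2 ligand, measured 26.2, 60.7, 39.4 and 47.5 CPM in saline tumors and 31.4, 26.1, 46.3 and 35.2 CPM in mAb-DXd/IMQ tumors. The groups overlapped over most of their range, with saline tumor 1 close to the lowest mAb-DXd/IMQ tumor. The log2 fold change of Ccl12 was -0.32 with a standard error of 0.24 (edgeR, adjusted p = 0.507). It was -0.50 without saline tumor 1, -0.12 without saline tumor 2, -0.21 without mAb-DXd/IMQ tumor 2 and -0.49 without mAb-DXd/IMQ tumor 3.

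These neighbors thus lay on both sides of 0, which made their ratios, free of any scaling between libraries, of use as a description. The ratio of Ccl2 to Ccl8 in CPM per kilobase was 0.106, 0.101, 0.0947 and 0.0586 in saline tumors, against 0.271, 0.143, 0.449 and 0.339 after mAb-DXd/IMQ. It was higher in every mAb-DXd/IMQ tumor than in any saline tumor. Among all 45 pairs of the 10 genes, 5 ratios (11.1%) did not overlap between the groups, and 11.4% of 163578828 pairs of the 18088 tested genes with a count in every tumor did not, so the share was near the background. All 5 were among the 6 pairs of Ccl2, Ccl7, Ccl12 and Ccl8, namely Ccl2 to Ccl7, Ccl2 to Ccl8, Ccl2 to Ccl12, Ccl7 to Ccl8 and Ccl7 to Ccl12, and none among the other 39. The ratios were chosen after the values were seen and were not tested. The number of such pairs was 13 without saline tumor 1, 10 without saline tumor 2, 8 without mAb-DXd/IMQ tumor 2 and 8 without mAb-DXd/IMQ tumor 3. These were 28.9, 22.2, 17.8 and 17.8% of the 45 pairs, beside 17.4, 15.5, 14.9 and 16.2% of the pairs of those 18088 genes with the same tumors, and 5 of 45 (11.1%) without each of the other tumors, beside 13.7 to 18.4% of those gene pairs.

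**Figure D2:**
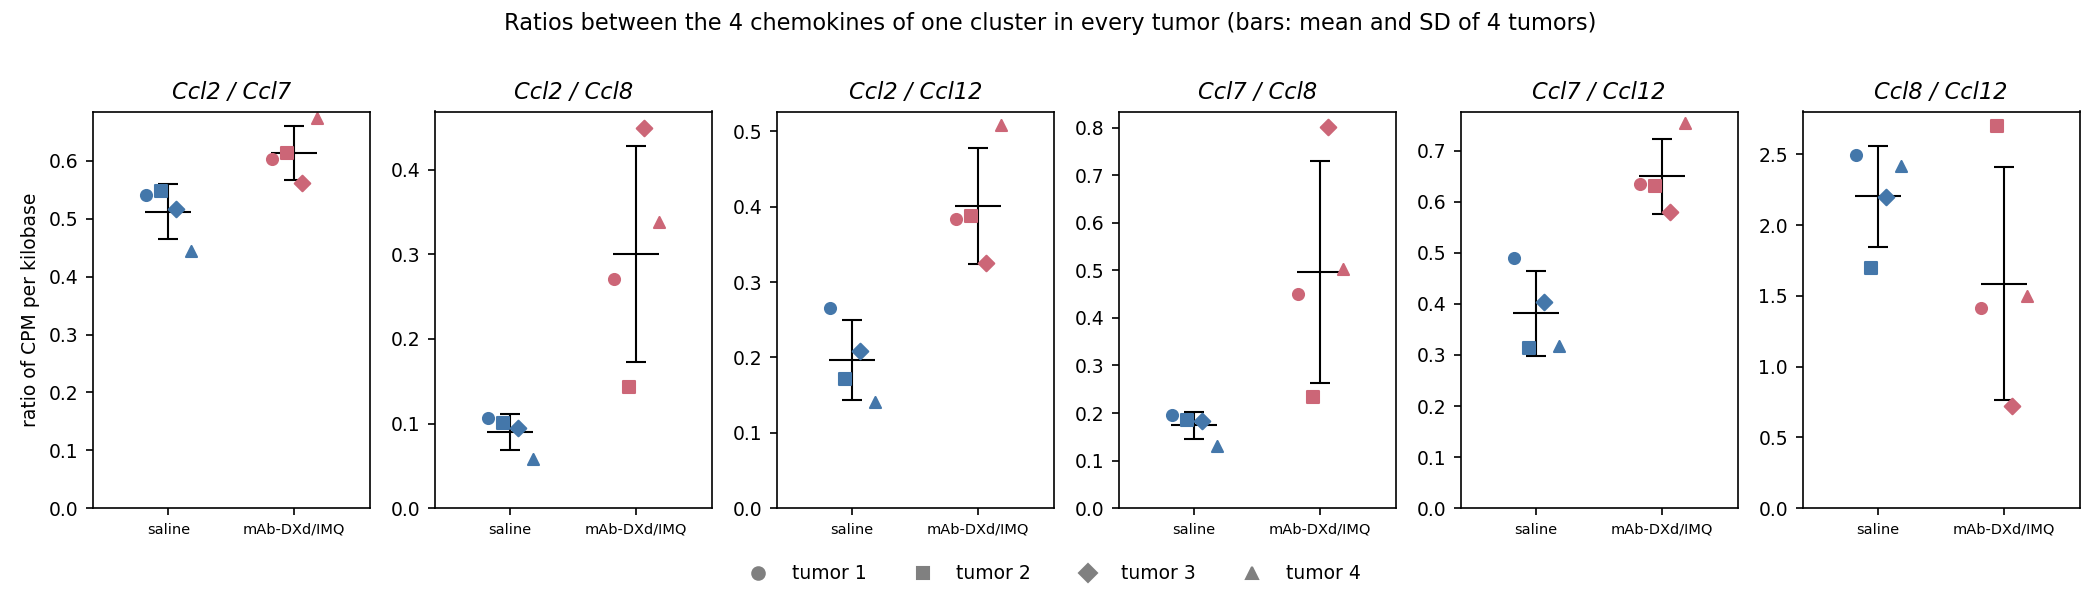
Ratios of CPM per kilobase (y axis, from 0) for the 6 pairs of Ccl2, Ccl7, Ccl12 and Ccl8, with 1 point per tumor, its shape giving the tumor number, and bars for the mean and SD of 4 tumors. The groups are apart in 5 panels and overlap for Ccl8 to Ccl12.

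Promoter windows of 250 bases before and 50 bases after the start (RefSeq, GRCm38.p6) were available here for 6 of the 10 genes, Ccl3, Ccl6, Ccl8, Ccl9, Ccl12 and Ccl22. The promoter set used here had no entry for Ccl2, Ccl4, Ccl5 and Ccl7, which says nothing about their promoters. They were searched on both strands for the NF-kB consensus, the AP-1 motif TGANTCA, the interferon-stimulated response element and the TATA box TATAAA. These were present in 4.51%, 7.81%, 3.44% and 13.6% of 32851 windows of 300 bases, in that order, and in 1, 1, 0 and 3 of the 6 windows here. The windows of Ccl12 (chr11:82101595-82101894, + strand) and Ccl8 (chr11:82114935-82115234, + strand) are shown for the neighbors that both had negative log2 fold changes, with motif matches in capitals.
Ccl12: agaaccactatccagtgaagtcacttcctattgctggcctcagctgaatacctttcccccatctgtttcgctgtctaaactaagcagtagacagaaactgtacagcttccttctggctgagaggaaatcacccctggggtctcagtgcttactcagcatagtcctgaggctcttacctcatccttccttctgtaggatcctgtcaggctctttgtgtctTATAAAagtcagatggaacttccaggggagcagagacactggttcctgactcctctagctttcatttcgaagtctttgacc
Ccl8: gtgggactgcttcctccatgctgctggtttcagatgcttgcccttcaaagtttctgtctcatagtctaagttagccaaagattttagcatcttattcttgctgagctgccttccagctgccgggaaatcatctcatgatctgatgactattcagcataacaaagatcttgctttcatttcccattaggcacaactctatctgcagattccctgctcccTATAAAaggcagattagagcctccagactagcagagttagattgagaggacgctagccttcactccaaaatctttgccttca
The only match in each was a TATA box, beginning at base -31 of Ccl12 and base -32 of Ccl8 from the start. A match is a description of letters, not of a site in use.

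The next set, Ccl5, Ccl3 and Ccl4, attract T cells and myeloid cells and lie in a further cluster on chromosome 11, at chr11:83525778-83530518 on the - strand, chr11:83647844-83649355 on the - strand and chr11:83662584-83664683 on the + strand. Ccl5, which T cells, NK cells and macrophages make, measured 22.1, 14.1, 16.7 and 19.8 CPM in saline tumors and 31.8, 22.1, 20.8 and 35.9 CPM in mAb-DXd/IMQ tumors. Tumors 1 and 4 were high among mAb-DXd/IMQ tumors, and tumors 2 and 3 were close to saline tumor 1, so the groups overlapped. The log2 fold change of Ccl5 was 0.61 with a standard error of 0.20 (edgeR, adjusted p = 0.141).

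Ccl3, an acute-phase attractant of myeloid cells through Ccr1, measured 8.13, 2.93, 3.65 and 4.49 CPM in saline tumors and 3.09, 3.83, 5.70 and 6.80 CPM in mAb-DXd/IMQ tumors. Ccl4, its neighbor and an attractant of T cells and monocytes, measured 10.1, 3.70, 5.91 and 5.35 CPM in saline tumors and 4.04, 3.70, 8.58 and 6.01 CPM in mAb-DXd/IMQ tumors. For both genes saline tumor 1 was the highest of all 8 tumors, saline tumor 2 was the lowest of its group, and the group ranges overlapped almost fully. The log2 fold changes were 0.01 with a standard error of 0.35 for Ccl3 and -0.17 with a standard error of 0.35 for Ccl4 (edgeR, adjusted p = 0.989 and 0.841). Neither direction was fixed: without saline tumor 1 the value was 0.16 for Ccl4, and without saline tumor 2 it was -0.16 for Ccl3.

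Ccl9 and Ccl6, both Ccr1 ligands made largely by myeloid cells, are neighbors at chr11:83572919-83578636 and chr11:83587882-83593087 on the - strand. Ccl6 measured 70.5, 212, 53.9 and 83.4 CPM in saline tumors and 142, 86.4, 85.8 and 239 CPM in mAb-DXd/IMQ tumors. Ccl9 measured 25.9, 136, 36.3 and 68.2 CPM in saline tumors and 54.2, 46.1, 47.4 and 80.8 CPM in mAb-DXd/IMQ tumors. For both, saline tumor 2 and mAb-DXd/IMQ tumor 4 were the highest of their groups, and the spread within groups was wider than the difference between them. Within the saline group the highest value was 3.94 times the lowest for Ccl6 and 5.27 times for Ccl9. The log2 fold changes were 0.40 with a standard error of 0.44 for Ccl6 and -0.22 with a standard error of 0.43 for Ccl9 (edgeR, adjusted p = 0.670 and 0.823). Without saline tumor 2 they were 0.99 for Ccl6 and 0.39 for Ccl9, and without mAb-DXd/IMQ tumor 4 the value of Ccl6 was 0.00.

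The windows of Ccl9 (chr11:83578587-83578886, - strand) and Ccl6 (chr11:83593038-83593337, - strand) are printed for these neighbors with the same highest tumors, with motif matches in capitals.
Ccl9: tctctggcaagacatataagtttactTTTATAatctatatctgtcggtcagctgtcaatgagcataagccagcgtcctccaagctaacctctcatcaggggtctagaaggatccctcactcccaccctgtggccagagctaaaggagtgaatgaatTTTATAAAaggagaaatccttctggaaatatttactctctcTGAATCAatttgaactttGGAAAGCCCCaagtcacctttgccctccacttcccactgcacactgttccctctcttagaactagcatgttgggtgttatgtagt
Ccl6: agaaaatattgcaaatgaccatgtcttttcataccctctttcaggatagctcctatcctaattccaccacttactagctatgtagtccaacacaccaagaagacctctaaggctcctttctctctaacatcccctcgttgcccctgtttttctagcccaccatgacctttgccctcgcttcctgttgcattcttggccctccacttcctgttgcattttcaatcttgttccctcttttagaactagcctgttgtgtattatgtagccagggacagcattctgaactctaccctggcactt
The Ccl9 window held the NF-kB consensus on the opposite strand from base -35 and the AP-1 motif from base -53. TATA boxes lay on the opposite strand from bases -224 and -94 and on the gene's own strand from base -92. Those from bases -94 and -92 overlapped. The Ccl6 window held none of the motifs searched.

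Ccl22, a dendritic cell and macrophage product that draws T cells through Ccr4, is the member outside chromosome 11, at chr8:94745590-94751699 on the + strand. It measured 1.58, 9.77, 4.44 and 7.46 CPM in saline tumors and 6.06, 3.28, 1.99 and 1.86 CPM in mAb-DXd/IMQ tumors. Saline tumor 1 was the lowest of all 8 and saline tumor 2 the highest, so the saline range enclosed every mAb-DXd/IMQ tumor. The log2 fold change was -0.81 with a standard error of 0.52, the largest standard error of the 10 (edgeR, adjusted p = 0.433). It was -0.45 without saline tumor 2 and -1.29 without mAb-DXd/IMQ tumor 1.

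**Figure D3:**
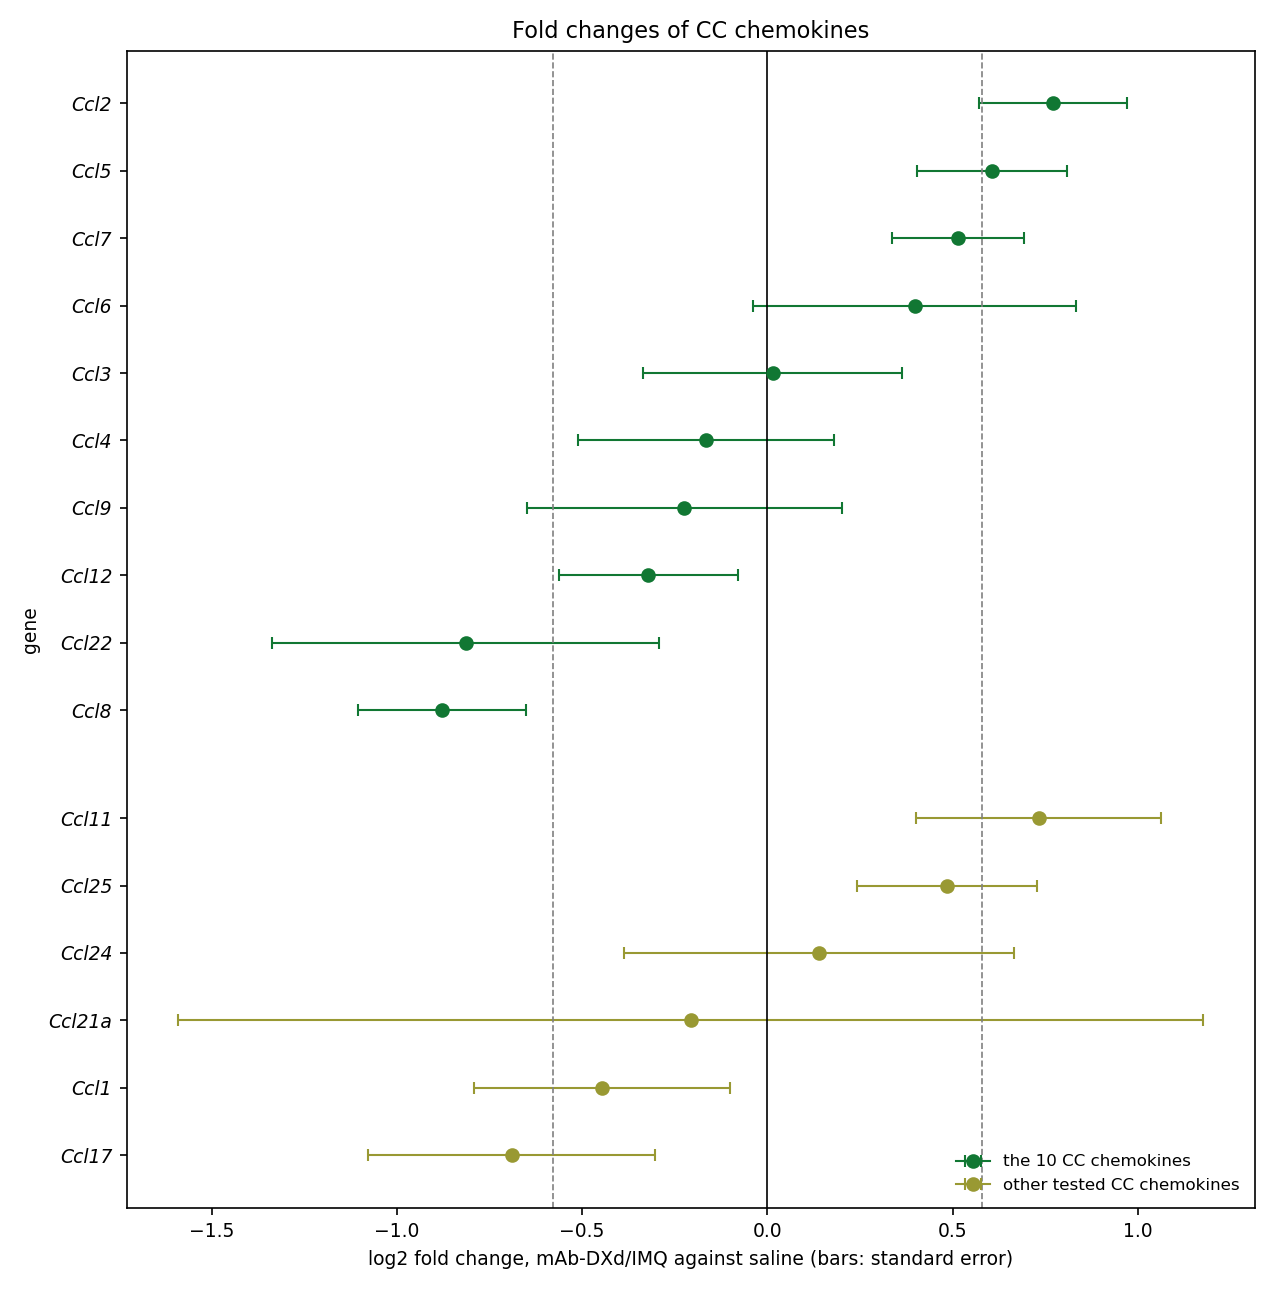
Log2 fold changes of mAb-DXd/IMQ against saline tumors (x axis; bars are standard errors, dashed lines the limits of -0.58 and 0.58) for the 10 CC chemokines and the other tested CC chemokines. Ccl2 is at 0.77 and Ccl8 at -0.88, and none of the genes drawn passed the false discovery rate of 0.05.

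Levels were compared between genes as CPM per kilobase of transcript, averaged over the 8 tumors. Ccl8 was highest at 133 ± 53.0 CPM per kilobase (SD, n = 8), followed by Ccl12 at 72.8 ± 22.3 and Ccl6 at 67.8 ± 38.6 CPM per kilobase. Ccl7 had 35.5, Ccl5 23.9, Ccl2 20.4 and Ccl9 20.3 CPM per kilobase, and Ccl4 had 8.98, Ccl3 6.31 and Ccl22 1.96 CPM per kilobase. Ccl8 was above Ccl12 in 7 of 8 tumors, Ccl7 above Ccl5 in 8 of 8, and Ccl3 above Ccl22 in 7 of 8. The other neighbors in the order had means closer than the larger of their SDs. Within tumors, Ccl4 was still above Ccl3 per kilobase in 8 of 8, Ccl6 above Ccl7 and Ccl9 above Ccl4 in 7 of 8, Ccl5 above Ccl2 and Ccl2 above Ccl9 in 6 of 8, and Ccl12 above Ccl6 in 5 of 8. Ccl8 was first in both groups by mean level per kilobase, at 172 CPM per kilobase for saline and 93.7 for mAb-DXd/IMQ, and Ccl22 last. Ccl9 held place 5 of the 10 among saline tumors and place 7 among mAb-DXd/IMQ tumors, while Ccl5 and Ccl2 moved from places 6 and 7 to 5 and 6. Ccl12 and Ccl6 exchanged places 2 and 3. Their means were 80.9 and 58.5 CPM per kilobase for saline, against 64.7 and 77.0 for mAb-DXd/IMQ.

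**Figure D4:**
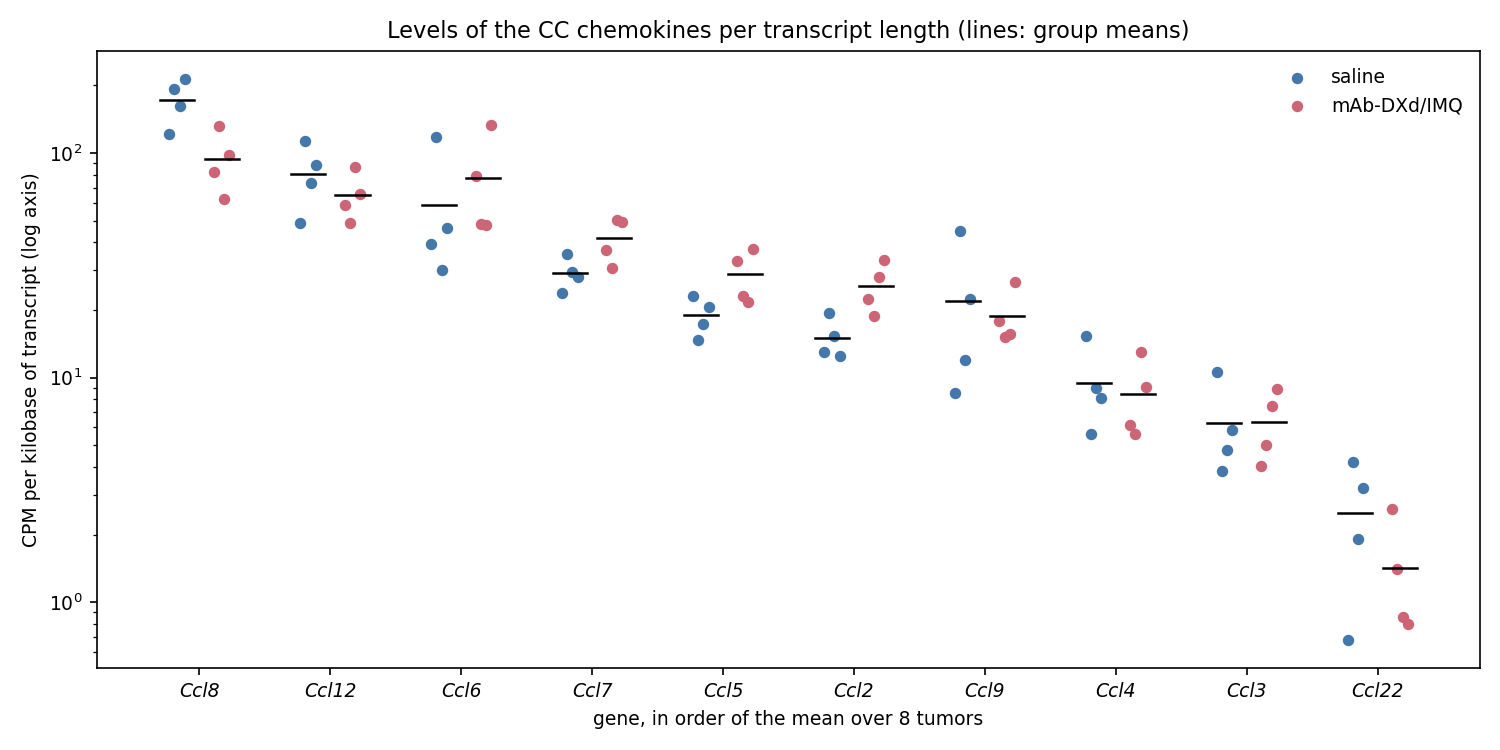
CPM per kilobase of transcript (y axis, log scale) of the 10 CC chemokines in order of their mean, with 1 point per tumor and lines for group means. The order runs from Ccl8 at 133 to Ccl22 at 1.96 CPM per kilobase over 8 tumors.

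The 10 genes together held 260, 589, 284 and 382 CPM in saline tumors and 370, 305, 321 and 533 CPM in mAb-DXd/IMQ tumors. Saline tumor 2 and mAb-DXd/IMQ tumor 4 stood highest, and the group means, 379 ± 149 and 382 ± 105 CPM (SD, n = 4 each), were closer than the spread. Ccl8 made up 23.9, 16.7, 29.1 and 28.6% of the summed CPM in saline tumors, and less in mAb-DXd/IMQ tumors 1, 3 and 4, at 11.4, 9.97 and 9.42%, whereas mAb-DXd/IMQ tumor 2 lay within the saline range. Ccl6 made up 27.1, 36.1, 19.0 and 21.8% in saline tumors, against 38.4, 28.3, 26.7 and 44.8% after mAb-DXd/IMQ. Saline tumor 2 was the highest of its group for 6 genes (Ccl2, Ccl6, Ccl7, Ccl9, Ccl12 and Ccl22) and the lowest for 3 (Ccl3, Ccl4 and Ccl5), for which saline tumor 1 was the highest. Among mAb-DXd/IMQ tumors, tumor 4 was highest for 5 genes and tumor 2 lowest for 5.

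Saline tumors 1 and 2, with the lowest and highest summed chemokine CPM of their group, also had its lowest and highest macrophage and monocyte marker sums. Single genes did not all follow this order. Ccl3, Ccl4 and Ccl5 were highest in saline tumor 1 and lowest of that group in saline tumor 2. Saline tumor 4 was highest for Ccl8 and lowest for Ccl2, and saline tumor 3 was lowest for Ccl6. The 16 markers summed to 1403, 6926, 3178 and 3923 CPM in saline tumors and 3890, 2857, 3580 and 2683 CPM in mAb-DXd/IMQ tumors. Of 15 tested, 0 passed by edgeR in either direction, and 14 log2 fold changes were below 0, with a median of -0.36. By edgeR, 4 of the 15 had an unadjusted p under 0.05, beside 18.9% of all tested genes. Groups did not overlap for 1 higher and 2 lower, beside 13.1% of all tested genes in either direction. Lyz2 was the most abundant at 1212 CPM per kilobase, and Marco was at 0 in every tumor. In mAb-DXd/IMQ tumor 4, where Ccl2, Ccl5 and Ccl6 were at their highest, this marker sum was the lowest of its group. The part of these cells in the chemokine values was not tested.

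**Figure D5:**
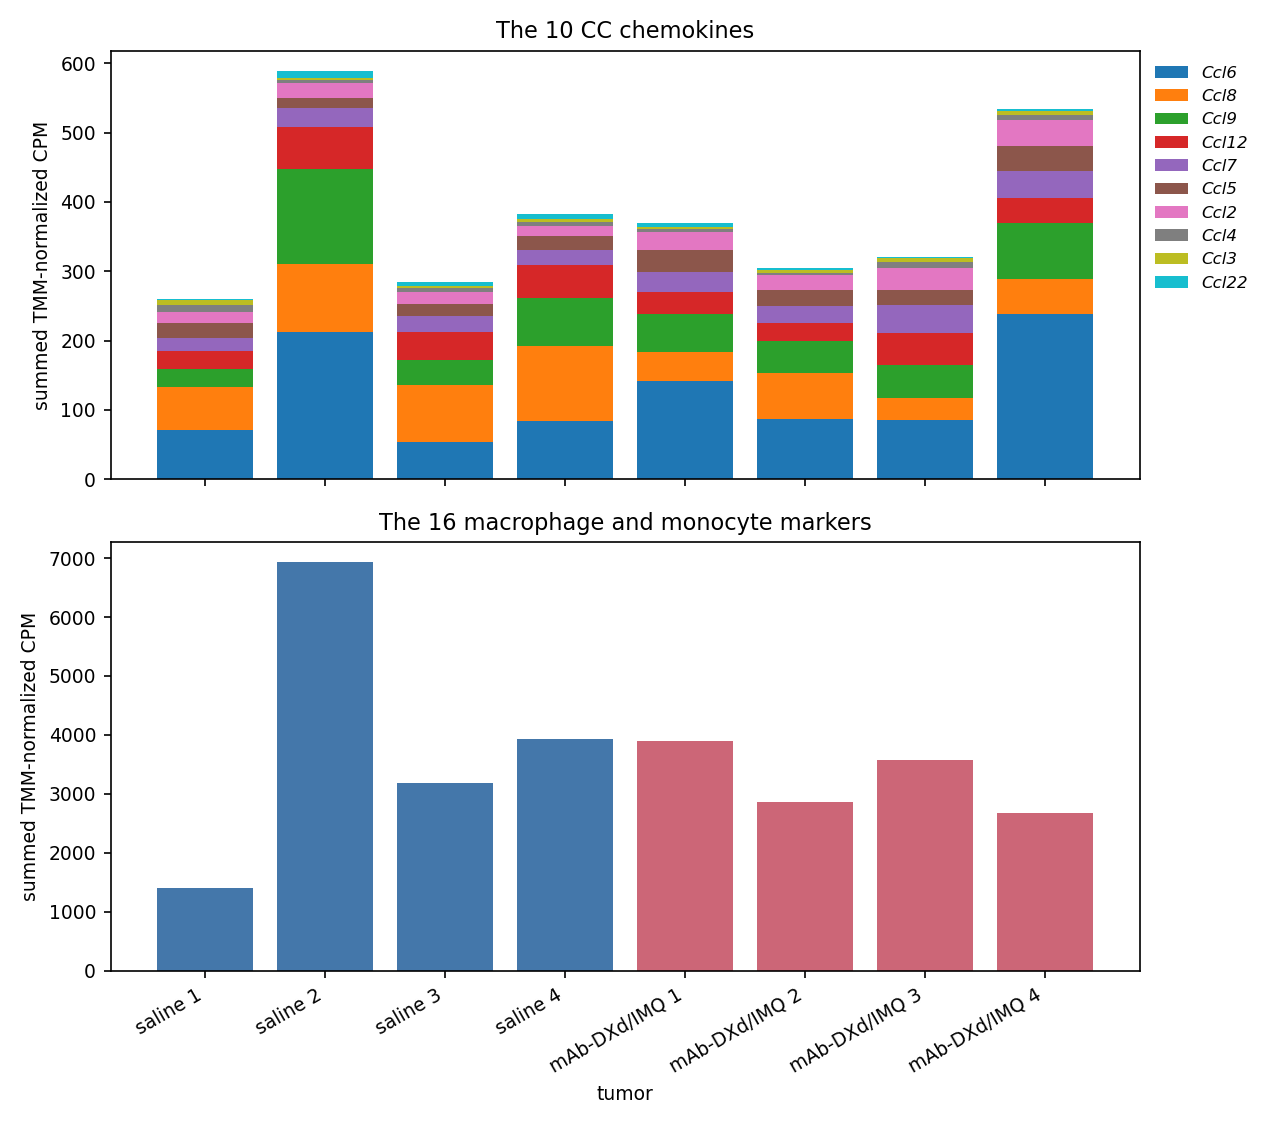
Summed TMM-normalized CPM (y axes, from 0) in each tumor of the 10 CC chemokines, stacked by gene, and of the 16 macrophage and monocyte markers. Saline tumor 2 is highest in both panels (589 and 6926 CPM), and mAb-DXd/IMQ tumor 4 has 533 CPM of chemokines beside 2683 CPM of markers.

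The remaining CC chemokines were mostly low. Of 14 further symbols, 6 were tested and 0 passed by edgeR, with a median log2 fold change of -0.03. By edgeR, 1 of the 6 had an unadjusted p under 0.05, beside 18.9% of all tested genes. The most abundant per kilobase was Ccl11 at 4.27 CPM per kilobase, below every member but Ccl22. Ccl11, between Ccl7 and Ccl12 on chromosome 11, measured 2.01, 2.37, 5.28 and 4.20 CPM in saline tumors and 5.80, 4.60, 8.04 and 4.64 CPM in mAb-DXd/IMQ tumors, with a log2 fold change of 0.73 and a standard error of 0.33 (edgeR, adjusted p = 0.261). Ccl17, the neighbor of Ccl22 on chromosome 8 and its partner as a Ccr4 ligand, had a log2 fold change of -0.69 with a standard error of 0.39 (edgeR, adjusted p = 0.364). Like Ccl22, Ccl17 was highest in saline tumor 2 and lowest of the saline group in saline tumor 1.

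Among the 15 receptor genes, 14 were tested and 0 passed by edgeR. At an unadjusted p under 0.05 there were 4 of the 14 by edgeR, beside 18.9% of all tested genes. Groups did not overlap for 1 of the 14, on the higher side, beside 13.1% of all tested genes in either direction. The median log2 fold change was -0.53, 4 above and 10 below 0, beside 0.02 over all tested genes. Ccr1, the receptor of Ccl3, Ccl5, Ccl6 and Ccl9, was the most abundant at 42.3 CPM per kilobase and measured 79.8, 223, 134 and 133 CPM in saline tumors and 114, 84.6, 103 and 87.0 CPM in mAb-DXd/IMQ tumors. Ccr2, the receptor of Ccl2, Ccl7 and Ccl12, measured 49.0, 265, 136 and 145 CPM in saline tumors and 101, 87.7, 92.7 and 75.2 CPM in mAb-DXd/IMQ tumors. For both, saline tumor 2 was highest and saline tumor 1 lowest of its group, and the mAb-DXd/IMQ tumors lay within a narrow range. The log2 fold changes were -0.55 and -0.74 with standard errors of 0.25 and 0.37 for Ccr1 and Ccr2 (edgeR, adjusted p = 0.266 and 0.306). Without saline tumor 2 they were -0.25 and -0.31, and without saline tumor 1 they were -0.75 and -1.03.

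Ccr3, Ccr4 and Ccr8, which bind Ccl5 and Ccl7, Ccl22, and Ccl8, stayed below 1 CPM in every tumor. Their log2 fold changes of 0.79, 0.73 and -1.01 had standard errors of 0.68, 0.65 and 0.75 (edgeR, adjusted p = 0.572, 0.584 and 0.503). Ccr10, a receptor of skin and mucosal chemokines outside the 10, was at 0.284, 0.226, 0.251 and 0.249 CPM in saline tumors and 0.578, 1.03, 1.11 and 0.478 CPM in mAb-DXd/IMQ tumors, with at most 51 counts. Its groups did not overlap, and its log2 fold change was 1.66 with a standard error of 0.42 (edgeR, adjusted p = 0.0723). Ccrl2, an atypical receptor, had a log2 fold change of -0.87 with a standard error of 0.28 (edgeR, adjusted p = 0.128). DESeq2 placed both Ccr10 and Ccrl2 past the thresholds.

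Of 23 genes that induce chemokine transcription or feed back on it, 22 were tested, 0 passed higher and 1 lower, and 17 log2 fold changes were below 0, with a median of -0.20. By edgeR, 9 of the 22 had an unadjusted p under 0.05, beside 18.9% of all tested genes. Groups did not overlap for 1 higher and 5 lower, beside 13.1% of all tested genes in either direction. Il1b, an inducer of Ccl2 and other members through NF-kB, measured 135, 110, 151 and 177 CPM in saline tumors and 69.3, 52.2, 76.4 and 52.8 CPM in mAb-DXd/IMQ tumors. Every mAb-DXd/IMQ tumor lay below every saline tumor, and Il1b fell with a log2 fold change of -1.19 and a standard error of 0.17 (edgeR, adjusted p = 0.0201). It no longer passed without saline tumor 3, saline tumor 4 or mAb-DXd/IMQ tumor 4 (adjusted p = 0.0665, 0.0846 and 0.0694 by edgeR, and 0.0118 to 0.0846 over all 8 fits that left out a tumor). Irf7, an interferon-induced factor, measured 173, 55.2, 143 and 119 CPM in saline tumors and 279, 249, 287 and 272 CPM in mAb-DXd/IMQ tumors, without overlap, at a log2 fold change of 1.15 and a standard error of 0.27 (edgeR, adjusted p = 0.0591). It passed without saline tumor 1 or saline tumor 2 (adjusted p = 0.0433 and 0.0345 by edgeR, and up to 0.175 without other tumors). Among 11 alternatives it also passed in 3, with DESeq2, with no filter and with edgeR's newer quasi-likelihood method (adjusted p = 0.00126, 0.0199 and 0.0497, of a range from 0.00126 to 0.112). The NF-kB genes Nfkb1, Rela and Relb had log2 fold changes of -0.48, -0.33 and -0.32 with standard errors of 0.13, 0.10 and 0.10 (edgeR, adjusted p = 0.0812, 0.111 and 0.116), without overlap between groups. Ifng and Tlr8, at -1.02 and -0.92 with standard errors of 0.34 and 0.34, had adjusted p = 0.145 and 0.183 by edgeR, and Tlr8 passed without saline tumor 1 (adjusted p = 0.0294, and up to 0.395 without other tumors). For Ifng the groups did not overlap. Irf1 was the most abundant of these genes at 78.9 CPM per kilobase, and Ifnb1 stayed below 1 CPM in every tumor.

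Markers of other cell types that make or answer these chemokines were counted beside them by edgeR, and their part in the chemokine values was not tested. Of 14 T and NK cell markers tested, 0 passed higher and 2 lower, Cd4 (log2 fold change -1.91, standard error 0.25) and Cd8a (-1.22, standard error 0.17), both with adjusted p = 0.0201 by edgeR. Over the list 5 log2 fold changes were above and 9 below 0, with a median of -0.54. By edgeR, 9 of the 14 had an unadjusted p under 0.05, beside 18.9% of all tested genes. Among these, Prf1 and Gzma were on the higher side (log2 fold changes 0.95 and 0.87). Groups did not overlap for 6 of the 14, each lower, beside 13.1% of all tested genes. Neither Cd4 nor Cd8a passed without saline tumor 3, saline tumor 4 or mAb-DXd/IMQ tumor 4 (adjusted p = 0.0657, 0.0846 and 0.0694 for each by edgeR, with lowest values over 8 such fits of 0.00417 for Cd4 and 0.0133 for Cd8a). The list summed to 205, 166, 194 and 169 CPM in saline tumors and 172, 171, 142 and 212 CPM in mAb-DXd/IMQ tumors, with Gzmb the most abundant and Klrb1c below 1 CPM throughout. Of 12 dendritic cell markers 0 passed, and 10 log2 fold changes were below 0, with a median of -0.64. By edgeR, 6 of the 12 had an unadjusted p under 0.05, beside 18.9% of all tested genes. Groups did not overlap for 0 of the 12, beside 13.1% of all tested genes. The list summed to 2914, 4554, 3692 and 3561 CPM in saline tumors and 3593, 3044, 2127 and 2460 CPM in mAb-DXd/IMQ tumors, led by Cd74. Of 8 neutrophil markers tested, 1 passed lower, Csf3r (log2 fold change -0.80, standard error 0.16, adjusted p = 0.0402 by edgeR), and it passed in 1 of 8 fits that each left out a tumor, that without mAb-DXd/IMQ tumor 1 (adjusted p from 0.0428 to 0.134 over the 8). The list summed to 576, 230, 533 and 283 CPM in saline tumors and 563, 376, 832 and 356 CPM in mAb-DXd/IMQ tumors, led by Mmp9, with Ly6g and Camp below 1 CPM. Mmp9 made up most of that sum, while 6 of 8 log2 fold changes were below 0, with a median of -0.78. By edgeR, 4 of the 8 had an unadjusted p under 0.05, beside 18.9% of all tested genes. Groups did not overlap for 3 of the 8, each lower, beside 13.1% of all tested genes. S100a8 and S100a9, picked after the values were seen, had log2 fold changes of -1.74 and -1.81 without overlap between groups (edgeR, adjusted p = 0.0521 and 0.0598).

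Of 6 eosinophil and mast cell markers tested, 1 passed lower, Cpa3 (log2 fold change -2.84, standard error 0.58, adjusted p = 0.0433 by edgeR), though only without saline tumor 2 when tumors were left out (adjusted p from 0.0112 to 0.143 over the 8 fits). The list summed to 154, 13.1, 112 and 141 CPM in saline tumors and 8.48, 32.5, 6.95 and 26.2 CPM in mAb-DXd/IMQ tumors, led by Tpsb2, with Siglecf, Epx, Prg2 and Ear2 below 1 CPM. All 6 log2 fold changes were below 0, with a median of -2.38. By edgeR, 4 of the 6 had an unadjusted p under 0.05, beside 18.9% of all tested genes. Groups did not overlap for 0 of the 6, beside 13.1% of all tested genes. Fibroblast markers summed to 2795, 3786, 6610 and 7061 CPM in saline tumors and 5484, 4219, 7501 and 2818 CPM in mAb-DXd/IMQ tumors, led by Col1a1, with 0 of 6 passing, 4 below 0 and a median log2 fold change of -0.06. Endothelial markers summed to 73.4, 177, 125 and 134 CPM in saline tumors and 171, 149, 170 and 140 CPM in mAb-DXd/IMQ tumors, led by Cdh5, with 0 of 4 passing, 4 above 0 and a median log2 fold change of 0.41. Epithelial tumor cell markers summed to 2737, 1896, 2613 and 2368 CPM in saline tumors and 3518, 2975, 2359 and 2226 CPM in mAb-DXd/IMQ tumors, led by Krt18, with 0 of 10 passing, 8 above 0, a median log2 fold change of 0.23 and Pgr below 1 CPM. Saline tumor 2 had the highest macrophage, dendritic cell and endothelial sums of the 8 tumors. Within its group it was highest in Ccl6, Ccl9 and Ccl12 and lowest in Ccl3, Ccl4 and Ccl5.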

How the data were processed

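Bulk RNA-seq of poly(A)-enriched RNA was run on a HiSeq X instrument by Novogene. The authors deposited a table of whole-number read counts, not normalized. The submitters' processing notes name HISAT2, HISAT, TopHat2 and mm39. The table's coordinates matched GRCm38 instead, with 53585 of 54532 genes at the same start and end in GENCODE M21. The counting program and its use of strand are not given in the sources used here. E230016K23Rik overlaps Ccl6 and Gm17268 overlaps Ccl2 on the opposite strand, with at most 24 and 0 counts. No window of 100 bases in the members' transcripts was found in another gene's.

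Counts were filtered by filterByExpr (minimum count 10, minimum total 15), scaled by TMM and tested in edgeR 4.0.16 (quasi-likelihood, no covariates, R 4.3.3) across all genes, with Benjamini-Hochberg adjustment. Standard errors were computed from the coefficient and its F statistic. Alternatives used DESeq2 1.42.0, limma 3.58.1, other factors and filters, a gene length spline, a replicate block, and leaving out tumors. Those for genes outside the 10 and for ratios were added after the data were seen. Figures used Python 3.11.15 and matplotlib 3.10.9.

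The members and lists were chosen with earlier results of these data known. Outside the members, genes were named when past the thresholds, when their adjusted p was under 0.2 (receptors and inducers), as most abundant of a list, or as known receptors.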

Additional observations from a re-analysis of the deposited data

Results flagged for a closer look

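No tumor stood far enough from the other 3 of its group to be marked by Dixon's ratio. This was checked in 58 groups of 4 values: the 10 CC chemokines, 6 receptors and the summed lists, each in both treatment groups. Chance alone marks about 1 group in 20.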

How the results depend on the processing

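Of the 10 CC chemokines, 7 kept the sign of their log2 fold change in all 11 alternatives and in all 8 fits that left out a tumor, and 3 (Ccl3, Ccl4 and Ccl9) did not. Ccl3 was at -0.0015 with edgeR's newer quasi-likelihood method, -0.12 with the gene length correction and -0.0533 with that correction and the replicate block. Ccl9 was at 0.0300 with limma-voom and 0.0568 with the replicate block. Leaving out tumors gave ranges of -0.18 to 0.39 for Ccl3, -0.45 to 0.16 for Ccl4 and -0.49 to 0.39 for Ccl9. The cause was not tested.

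The number of members past the thresholds was 2 with no filter and 2 with DESeq2 (Ccl2 and Ccl8 in both), and 0 in all other settings, leaving out tumors included (0 to 0). Members whose groups did not overlap numbered 1 with library size only and 0 to 3 with a tumor left out.

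Genes past the thresholds numbered 358 with no filter, 787 with DESeq2, 122 with the gene length correction and 10 to 203 with a tumor left out. With the replicate block there were 14, and 14 with the length correction and the replicate block. Tumors that share a number were separate mice. Their deviations correlated at -0.17, -0.0546, 0.0794 and -0.0672, beside -0.103 to 0.181 for tumors with unlike numbers. These correlations gave no sign of pairing by number. Whether tumors with the same number shared handling was not tested. Il1b, Cd4, Cd8a, Csf3r and Cpa3 did not pass with the replicate block, with or without the length correction. Csf3r also did not pass with upper-quartile factors or library size only (adjusted p = 0.0501 and 0.0601 by edgeR, range 0.000534 to 0.124), nor Cpa3 with limma-voom (adjusted p = 0.110, range 0.00182 to 0.142). Log2 fold change and gene length correlated at -0.212 (Spearman, across genes), and at -0.0339 after correction. With the length correction, with or without the replicate block, 3 members rather than 4 had an unadjusted p under 0.05 by edgeR. With 4 tumors a group, standard errors of the members were 0.18 to 0.52, so differences of that size were not resolved.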
